A study of Homo sapiens with 18 samples.

Results

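The 7 genes of the eIF2 alpha phosphorylation switch were followed through 18 RNA-Seq libraries. They are the 4 kinases EIF2AK1, EIF2AK2, EIF2AK3 and EIF2AK4, their substrate EIF2S1 (eIF2 alpha), and PPP1R15A and PPP1R15B, which direct the phosphatase to it. They were chosen by name, as the known parts of the switch, and each was found as 1 of the 25435 rows of the table of counts. eIF2 carries the initiator tRNA to the ribosome, and phosphorylation of its alpha subunit slows translation in general while a few mRNAs, ATF4 among them, are translated more. Each kinase answers to its own signal: EIF2AK3 (PERK) to unfolded protein in the ER, EIF2AK2 (PKR) to double-stranded RNA, EIF2AK4 (GCN2) to uncharged tRNA, and EIF2AK1 (HRI) to lack of heme and to stress in mitochondria. PPP1R15A (GADD34) is induced under stress and PPP1R15B (CReP) is made constitutively, and both bring the catalytic subunit of protein phosphatase 1 to eIF2 alpha to end the signal. The libraries measure mRNA, so neither kinase activity nor phosphorylation of eIF2 alpha was observed.

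The cells were HEK293doxERN2, a human embryonic kidney line that carries a transgene for FLAG-tagged ERN2 (IRE1 beta), an ER stress sensor of mucosal epithelium, under a promoter that doxycycline switches on. All groups carry the transgene, and the doses of doxycycline, given for 24 hr, were 0, 10 and 100 ng/mL (labelled No, Low and High ERN2). In the final 3 hr each dose received 200 nM thapsigargin, which empties the calcium store of the ER and causes ER stress (labelled stress), or the same volume of its solvent DMSO (labelled control). This makes 6 groups of 3 libraries. All come from 1 engineered line, and doxycycline differs between doses together with ERN2, so effects of the drug and of the transgene cannot be told apart. No label says that the libraries of a group came from separate cultures, so p-values measure the spread between these libraries, which may be technical.

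Each library held 14876416 to 24652240 counted reads, and the 7 genes had at least 561 reads in every library. Levels are given in CPM, each count relative to the total of its library, with totals scaled by the trimmed mean of M values. ERN2 followed its labels, at 6.66 to 14.4 CPM without doxycycline, 23.0 to 111 CPM with 10 ng/mL, and 167 to 308 CPM with 100 ng/mL. Its rise at 10 ng/mL under thapsigargin did not pass the threshold used throughout (log2 2.42, adjusted p = 0.292 by edgeR's quasi-likelihood test against a threshold of 0.01), and its other rises did. Replicate 1 of the High ERN2, stress group lay farthest from another of its own group, with a chi-square per degree of freedom of 63.8 against replicate 3, where all pairs within groups spanned 7.33 to 63.8. Calls of the members and of the gene lists that rest on it are therefore also given without it where they change. The extraction note in the labels speaks of colon crypt cells. However, 5 of 6 colon epithelium markers (CDX1, VIL1, MUC2, KRT20 and LGALS4) had 0 to 9 reads in any library, and CDX2 had 56 to 161. The neuronal and renal genes typical of HEK293 (PAX2, LHX1, NEFM and NEFL) were all detected. LHX1 had 264 to 785 reads, NEFM 312 to 671 and NEFL 1016 to 2596. PAX2 was low, at 17 to 89 reads, a lower range than that of CDX2. The HEK293 genes summed to 166 to 187 CPM in the No ERN2, control libraries and to 107 to 130 CPM in the No ERN2, stress libraries. At that dose LHX1 and NEFL fell by 0.80 and 0.60 on the log2 scale (edgeR's quasi-likelihood test, adjusted p = 0.00181 and 0.00265), and at 10 ng/mL the sum was 175 to 191 CPM in control and 118 to 140 CPM with thapsigargin. The part of these shifts in the thapsigargin results was not tested.

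The DNA upstream of the members that moved, or around the start for EIF2AK2, is shown first, since it is what regulators of the switch can bind. RefSeq promoters (GRCh38.p14, 250 bases before to 50 after the start of transcription) matched 6 of the 7 genes. EIF2AK1 was not matched. Both strands were searched for 6 motifs, and capitals mark the matches described below the sequences.
PPP1R15A, chr19:48872256-48872376, plus strand: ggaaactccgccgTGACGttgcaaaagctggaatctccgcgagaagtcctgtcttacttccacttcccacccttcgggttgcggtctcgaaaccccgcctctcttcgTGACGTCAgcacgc
PPP1R15B, chr1:204411897-204412057, minus strand: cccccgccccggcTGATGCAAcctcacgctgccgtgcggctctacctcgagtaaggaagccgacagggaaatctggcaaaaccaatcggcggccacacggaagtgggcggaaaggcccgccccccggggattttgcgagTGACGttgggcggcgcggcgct
EIF2AK3, chr2:88627584-88627714, minus strand: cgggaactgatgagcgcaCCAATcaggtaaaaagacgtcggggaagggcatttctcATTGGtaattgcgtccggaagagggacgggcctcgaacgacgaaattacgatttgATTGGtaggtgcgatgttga
EIF2AK2, chr2:37156969-37156998, minus strand: ggagtccaagggGAAAACGAAActgagaac
The stretch of PPP1R15A holds the full cAMP response element TGACGTCA, which factors of the CREB and ATF family bind, at positions -58 to -51 from the start. These letters occur in 1.85% of 35116 promoters of the same length. It also holds TGACG, part of that element, at -152 to -148. PPP1R15B holds TGATGCAA at -227 to -220, a match to TGATGNAA, the core of the composite element that ATF4 and C/EBP proteins bind, found in 3.62% of promoters. TGACG, found in 24.6% of promoters, lies at -101 to -97, and a CCAAT box at -159 to -155, left in lower case. For EIF2AK3, 3 of the 4 CCAAT boxes in the window are within the stretch, 2 of them as ATTGG, and 0.991% of promoters hold at least 4. The stretch of EIF2AK2 runs across the RefSeq start and lies inside the span that GENCODE gives the gene, so its positions hold for the RefSeq start. It holds GAAAACGAAA at -6 to 3, a match to the core of the interferon-stimulated response element (GAAA, any 2 bases, GAAA), found in 3.57% of promoters. The full ER stress response element (CCAAT, any 9 bases, CCACG) was in 0 of the 6 windows and in 0.0769% of all promoters. The ER stress response element overlaps the CCAAT box, and the full cAMP response element holds TGACG on both strands. None of the 6 motifs was found for EIF2AK4 or EIF2S1, which says only that these letters are not in this window. A match is a description of the sequence and not a measured binding site.

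In GENCODE 29 (GRCh38), EIF2AK1 lies on chromosome 7 at 6022244 to 6059230 (minus strand), EIF2AK2 on chromosome 2 at 37099210 to 37157065 (minus) and EIF2AK3 on chromosome 2 at 88556741 to 88627576 (minus). EIF2AK4 lies on chromosome 15 at 39934146 to 40035591 (plus) and EIF2S1 on chromosome 14 at 67359997 to 67386516 (plus). PPP1R15A lies on chromosome 19 at 48872392 to 48876057 (plus) and PPP1R15B on chromosome 1 at 204403387 to 204411791 (minus). All 7 are protein-coding. Whether the counting used strand is not given in the sources used here, so reads from genes on the opposite strand may not be separated. EIF2AK3 shares 18870 bases of its span with the antisense gene AC104134.1, PPP1R15B shares 8405 with AL606489.1, and EIF2AK1 shares 5011 with ANKRD61 and 1591 with AIMP2. PPP1R15A overlaps no annotated gene.

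**Figure D1:**
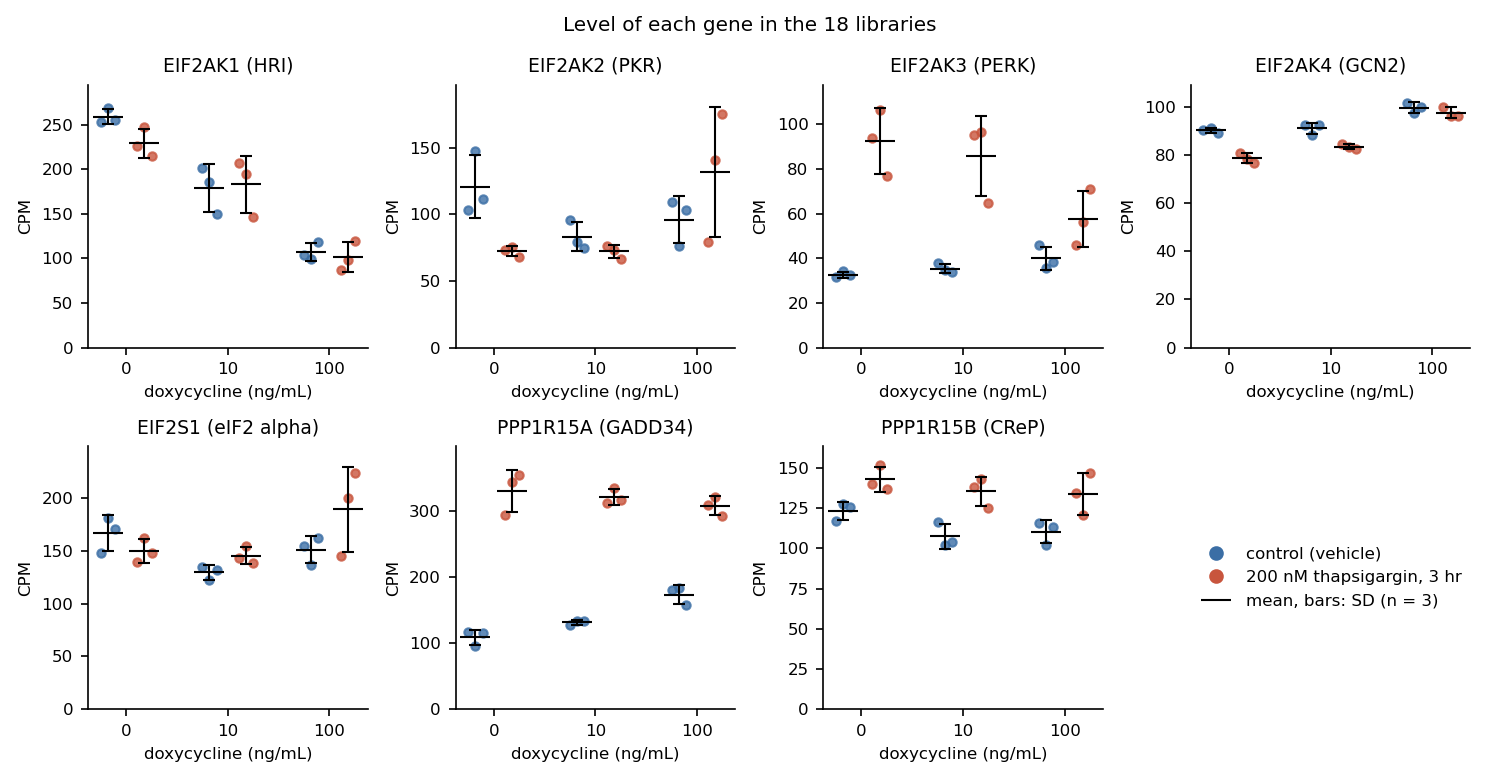
Level in CPM (linear axes from 0) of each gene in each library, by dose of doxycycline, for control (blue, left) and thapsigargin (red, right). Points are libraries and black marks the mean with the SD of 3. PPP1R15A and EIF2AK3 stand higher with thapsigargin at every dose, and EIF2AK1 steps down with dose in both treatments.

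Without doxycycline, thapsigargin raised PPP1R15A and EIF2AK3 about 3-fold and lowered EIF2AK2, so among the kinases the ER sensor rose and the sensor of double-stranded RNA fell. PPP1R15A, the inducible phosphatase subunit, was at 116, 95.3 and 114 CPM in the control libraries and at 294, 343 and 353 CPM with thapsigargin. The groups were far apart, and the lowest stressed library was well clear of the highest control. The rise was 3.07-fold (95% CI 2.58 to 3.65), which is 1.62 ± 0.12 (SE) on the log2 scale, with an adjusted p of 1.23e-06 by edgeR's quasi-likelihood test. EIF2AK3 (PERK) was at 31.4, 34.1 and 32.6 CPM in control and at 94.0, 107 and 77.0 CPM with thapsigargin. These groups did not overlap either, and the stressed libraries varied more among themselves than the controls did. EIF2AK3 rose 2.85-fold (95% CI 2.34 to 3.48, adjusted p = 8.43e-06, edgeR). EIF2AK2 (PKR) was at 103.5, 148 and 111.5 CPM in control and at 73.2, 75.7 and 68.3 CPM with thapsigargin. All stressed libraries lay below all controls, and the second control replicate stood above the other two. EIF2AK2 fell by 0.73 ± 0.13 (SE) on the log2 scale (adjusted p = 0.00216, edgeR), and in a model of all 6 groups its adjusted p was 0.0218.

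These 3 were the members that passed, where 11.2% of the 14397 genes tested did, 6.45% higher and 4.74% lower. The groups did not overlap for 6 of 7 members, where 40% of all genes were separated in this way. EIF2AK1, EIF2AK4 and PPP1R15B had log2 differences of -0.17, -0.19 and 0.23 with adjusted p of 0.255, 0.188 and 0.124 (edgeR). EIF2S1 (eIF2 alpha) was at 148, 182 and 171 CPM in control and at 139.8, 162 and 148 CPM with thapsigargin, and its groups overlapped. In bulk RNA a lower level in fewer cells and a lower level per cell cannot be told apart, here and in all results that follow.

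At 10 ng/mL doxycycline the same phosphatase subunit and the same kinase rose. PPP1R15A was at 127, 134 and 133 CPM in control and at 311, 335 and 316 CPM with thapsigargin, with no overlap and little spread in either group. It rose 2.45-fold (95% CI 2.09 to 2.87, adjusted p = 0.000137, edgeR). EIF2AK3 was at 37.8, 34.6 and 33.7 CPM in control and at 95.3, 96.6 and 64.9 CPM with thapsigargin. The third stressed replicate was the low one, still above every control. EIF2AK3 rose 2.43-fold (95% CI 1.90 to 3.11, adjusted p = 0.00183, edgeR). Its adjusted p was 0.0305 without the second Low ERN2, control replicate and 0.0196 without the second Low ERN2, stress replicate. These 2 members rose where 1.16% of genes did and 1.45% were called in either direction, and the groups of 5 members did not overlap, where 28.3% of all genes did not. EIF2AK2 was at 95.7, 79.5 and 74.9 CPM in control and at 76.2, 73.6 and 66.8 CPM with thapsigargin, with overlapping groups and a log2 difference of -0.20 (95% CI -0.48 to 0.08).

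At 100 ng/mL no member passed the threshold with all libraries, and the count turned on 1 library. PPP1R15A was at 179, 183 and 157 CPM in control and at 309, 321 and 293 CPM with thapsigargin. The stressed libraries were all far above the controls, and these controls stood above those of the other doses. The difference was 1.83-fold (95% CI 1.52 to 2.21), with an adjusted p of 0.01003 by edgeR, just outside the threshold, and of 6.57e-08 by DESeq2. EIF2AK3 was at 45.9, 35.8 and 38.2 CPM in control and at 46.0, 56.2 and 70.9 CPM with thapsigargin. The lowest stressed library barely cleared the highest control, and the 1.49-fold difference had a 95% CI of 1.12 to 1.99 (adjusted p = 0.104, edgeR). EIF2AK2 was at 109, 76.0 and 103 CPM in control and at 79.2, 141 and 176 CPM with thapsigargin. The first stressed replicate fell among the controls and the other two lay above them.

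In this comparison 0.201% of genes were called, 0.18% higher. At an unadjusted p under 0.05 there were 3 members, and DESeq2 called 1 of 7. The groups of 3 members did not overlap, all higher with thapsigargin, where 25.9% of all genes did not. Without the first High ERN2, stress replicate, 17.6% of genes were called and 3 members with them: EIF2AK2 (log2 0.75, adjusted p = 0.00371), EIF2AK3 (log2 0.70, adjusted p = 0.00485) and PPP1R15A (log2 0.86, adjusted p = 0.000423), all by edgeR's quasi-likelihood test. The library left out held the lowest EIF2AK2 value of its group. Over the 6 fits with 1 library left out, the log2 difference of EIF2AK2 ran from 0.24 to 0.75. Its adjusted p ran from 0.00371 to 0.644 (edgeR), and 1 of the 6 fits passed. EIF2AK3 and PPP1R15A also passed in 1 of the 6. Without doxycycline EIF2AK2 fell.

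PPP1R15B (CReP), the constitutive subunit, differed little at any single dose but in the same direction at all 3. It was at 117, 128 and 125.5 CPM in the No ERN2, control libraries and at 140.2, 152 and 137 CPM in the No ERN2, stress libraries. At 10 ng/mL it was at 116.5, 102 and 104 CPM in control and at 138, 143 and 125 CPM with thapsigargin. In the high-dose groups the values were 115.5, 102 and 113.5 CPM in control and 134, 121 and 147 CPM with thapsigargin. The stressed libraries were above the controls of their own dose each time. Averaged over the doses, with all 18 libraries in 1 model, PPP1R15B rose 1.21-fold (95% CI 1.11 to 1.32, adjusted p = 0.00111, edgeR). In the same model PPP1R15A rose 2.36-fold (adjusted p = 7.31e-09) and EIF2AK3 2.15-fold (adjusted p = 3.79e-06), both by edgeR. These were 3 members higher where 10.7% of genes were, of 21.8% called in all. EIF2AK1, EIF2AK2, EIF2AK4 and EIF2S1 did not pass, with log2 differences of -0.07, -0.16, -0.12 and 0.11.

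**Figure D2:**
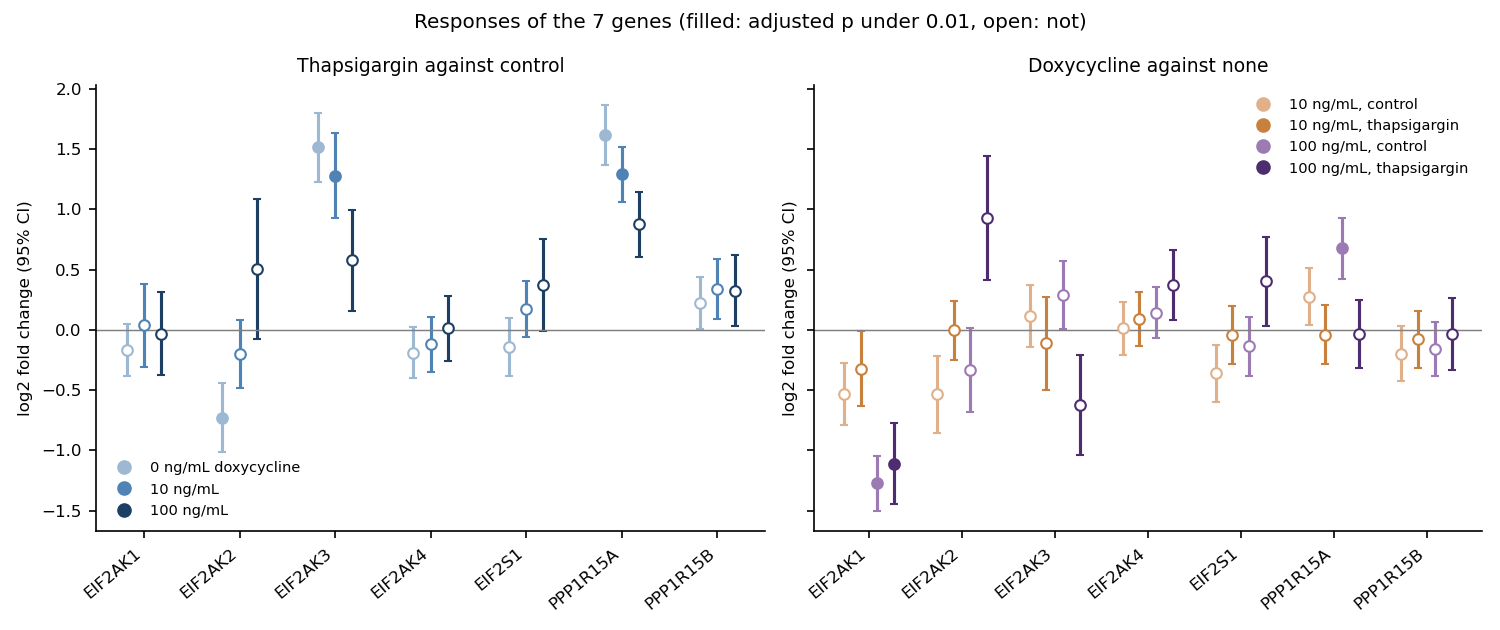
Log2 fold change of each gene with its 95% confidence interval, for thapsigargin against control at each dose (left) and for each dose against no doxycycline in both treatments (right). Filled symbols have an adjusted p under 0.01 by edgeR. The response of PPP1R15A goes from 1.62 without doxycycline to 0.88 at 100 ng/mL, and EIF2AK1 is the only member filled at 100 ng/mL in both treatments.

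Whether the response to thapsigargin differed between doses was tested as the interaction. With 10 ng/mL, 0 members and 0 of 14857 genes passed (edgeR, 0%), 3 members were at an unadjusted p under 0.05, and DESeq2 called 0 members. With 100 ng/mL, 0 members passed where 0.0406% of genes did, 5 members were at an unadjusted p under 0.05, and DESeq2 called 2. The interaction of PPP1R15A was -0.66 ± 0.15 (SE) on the log2 scale (95% CI -0.99 to -0.33, adjusted p = 0.0585 by edgeR and 0.0022 by DESeq2). The thapsigargin levels of PPP1R15A overlapped across doses, and its control levels stepped up with dose without overlap. For EIF2AK2 the interaction was 1.32 (95% CI 0.59 to 2.05, adjusted p = 0.0719 by edgeR and 0.00931 by DESeq2), and for EIF2AK3 it was -0.86 (95% CI -1.38 to -0.33, adjusted p = 0.0826 by edgeR). Without the first High ERN2, stress replicate, 8.6% of genes were called, and the interactions of EIF2AK2 (1.53, adjusted p = 0.00138), EIF2S1 (0.71, adjusted p = 0.00769) and PPP1R15A (-0.70, adjusted p = 0.00917) passed by edgeR. Each of them passed in 1 of the 12 fits with a library left out.

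With doxycycline alone, EIF2AK1 (HRI) had the largest change among the members and fell, and PPP1R15A rose. EIF2AK1 was at 252, 269 and 255.5 CPM in the No ERN2, control libraries and at 201, 185 and 149 CPM in the Low ERN2, control libraries. In the High ERN2, control libraries it was at 104, 99.6 and 118 CPM. The 3 doses formed 3 steps without overlap. With 100 ng/mL EIF2AK1 was at 0.414 of its level without doxycycline (95% CI 0.353 to 0.485), a fall by 1.27 ± 0.11 (SE) on the log2 scale (adjusted p = 4.22e-06, edgeR). PPP1R15A rose 1.60-fold between the same groups (95% CI 1.34 to 1.90, adjusted p = 0.00137, edgeR), from the 95.3 to 116 CPM given above to 157 to 183 CPM. These 2 members were called where 8.33% of genes were, 0.838% higher and 7.49% lower. The groups of 5 members did not overlap, where 33.1% of all genes did not. EIF2AK4 (GCN2) was at 90.2, 91.3 and 89.2 CPM without doxycycline and at 101.5, 97.3 and 99.9 CPM at 100 ng/mL, apart but not called (log2 0.14, adjusted p = 0.359, edgeR). The HEK293 genes summed to 128 to 153 CPM at 100 ng/mL in control, below the 166 to 187 CPM without doxycycline, and 1 of the 4, NEFM, passed (log2 -0.73, adjusted p = 0.00116, edgeR). The part of this shift in the dose results was not tested.

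In control, 10 ng/mL gave no called member, where 0.193% of genes were called. By edgeR 4 members were at an unadjusted p under 0.05, and DESeq2 called EIF2AK1. EIF2AK1 was at 0.691 of its level without doxycycline (95% CI 0.579 to 0.824), with an adjusted p of 0.0596 by edgeR and 0.00406 by DESeq2. Without the first Low ERN2, control replicate, EIF2AK1 and EIF2AK2 were both called, with log2 differences of -0.63 and -0.65 (adjusted p = 0.00105 and 0.00282, edgeR), and the number of genes called went from 28 to 2743. Each was called in 1 of the 6 fits with a library left out. In the others the adjusted p reached 0.218 for EIF2AK1 and 0.289 for EIF2AK2 (edgeR). The groups of 5 members did not overlap, 4 of them lower at 10 ng/mL, where 29.8% of all genes did not. EIF2S1 was one of the 4, at 135, 122 and 132 CPM against 148, 182 and 171 CPM, with a log2 difference of -0.36 (adjusted p = 0.0825, edgeR).

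Under thapsigargin the step in EIF2AK1 was seen again. It was at 225.5, 247 and 214 CPM in the No ERN2, stress libraries, at 207, 195 and 147 CPM in the Low ERN2, stress libraries, and at 87.3, 97.6 and 119.8 CPM in the High ERN2, stress libraries. The order by dose was the same as in control, with no overlap between neighbouring doses. At 100 ng/mL EIF2AK1 was at 0.463 of its level without doxycycline (95% CI 0.367 to 0.584, adjusted p = 0.000275, edgeR), and its interaction with thapsigargin was 0.22 (95% CI -0.17 to 0.61). It was the member called there, where 10.5% of genes were (9% lower), and the groups of 4 members did not overlap, where 35.6% of all genes did not. EIF2AK2 was higher (1.90-fold, 95% CI 1.33 to 2.72, adjusted p = 0.0150, edgeR) and EIF2AK3 lower (0.650 of the level, 95% CI 0.487 to 0.867, adjusted p = 0.0375, edgeR), both outside the threshold. Without the first High ERN2, stress replicate, 27.2% of genes were called, and EIF2AK2 (log2 1.21, adjusted p = 1.93e-06) and EIF2S1 (log2 0.59, adjusted p = 0.00181) passed beside EIF2AK1 (log2 -0.99, adjusted p = 2.54e-05), by edgeR. EIF2AK2 and EIF2S1 each passed in 1 of the 6 fits with a library left out, and EIF2AK1 in all 6. EIF2S1 was at 145, 200.4 and 224 CPM in the High ERN2, stress group, the last 2 above all its other libraries.

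At 10 ng/mL under thapsigargin 0 of 14509 genes (0%) passed, so no member did, and EIF2AK1 was the 1 member at an unadjusted p under 0.05. DESeq2 called 39 genes and 0 members. Same-numbered libraries deviated together in these groups, and with the replicate number as a block EIF2AK1 passed (log2 -0.33, adjusted p = 0.00199, edgeR), among 564 genes. The groups of 2 members did not overlap, EIF2AK1 lower and EIF2AK4 higher, where 9.88% of all genes did not. AIMP2, whose gene overlaps EIF2AK1 on the other strand, had a log2 difference of 0.36 at 100 ng/mL in control (adjusted p = 0.103, edgeR) and of 0.03 under thapsigargin (adjusted p = 0.914, edgeR). Neither passed, and under thapsigargin the mean of AIMP2 was 57.7 CPM without doxycycline and 56.2 CPM at 100 ng/mL. ANKRD61, also on the strand opposite to EIF2AK1, had at most 12 reads in any library.

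**Figure D3:**
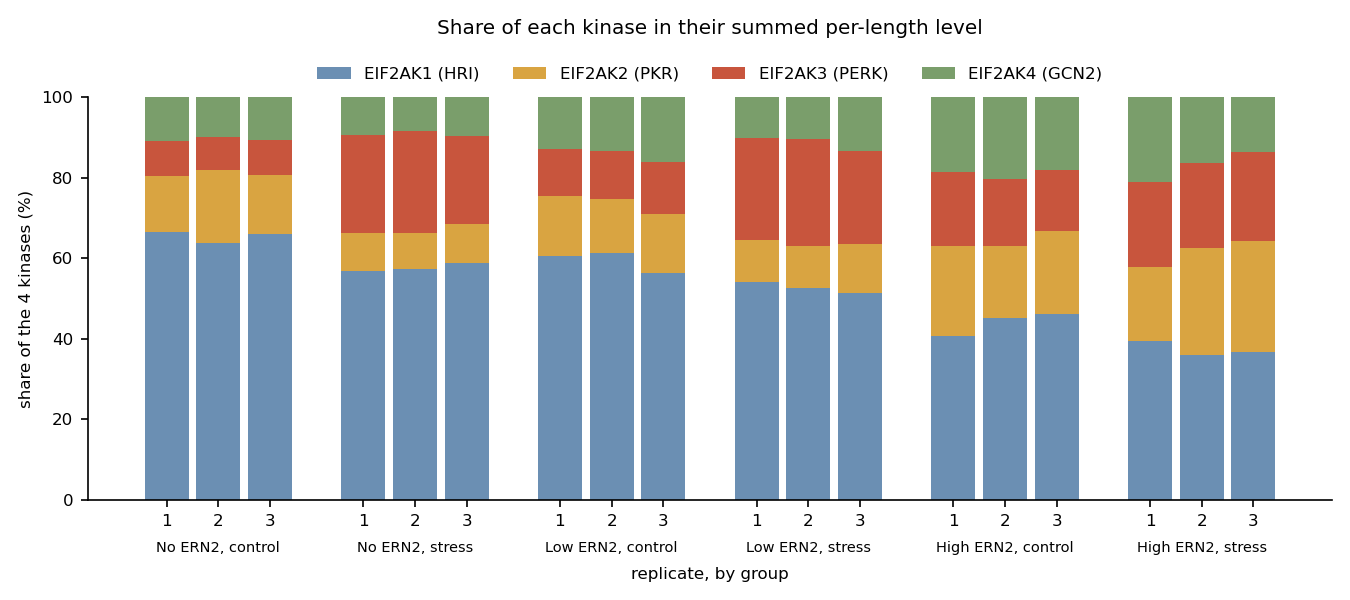
Share of each kinase in the summed level of the 4, from CPM per kb of exon, for each library (bars from 0 to 100%). EIF2AK1 goes from 63.7 to 66.4% in the No ERN2, control libraries to 35.9 to 39.4% in the High ERN2, stress libraries.

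Levels of different genes were compared per kb of exon. The lengths, over all annotated exons of a gene, were 5.55 kb for EIF2AK1, 10.8 kb for EIF2AK2, 5.43 kb for EIF2AK3 and 12.0 kb for EIF2AK4. The ranks and shares below depend on them. By this measure EIF2AK1 was the most abundant kinase mRNA in every library. In plain CPM it was not the highest in some High ERN2 libraries. In High ERN2, stress replicate 3 it was at 119.8 CPM against 175.7 CPM for EIF2AK2. In the No ERN2, control libraries it made up 65.3 ± 1.44% (SD, n = 3) of the 4 kinases, with EIF2AK2 at 15.7 ± 2.14%, EIF2AK4 at 10.6 ± 0.513% and EIF2AK3 at 8.43 ± 0.167%. With thapsigargin EIF2AK3 took 23.7 ± 1.86% and became the next most abundant, while the sum of the kinases was 71.6 ± 6.10 CPM per kb against 71.5 ± 4.08 in control. In control at 100 ng/mL the share of EIF2AK1 was 44.0 ± 2.84% and the sum was 43.9 ± 3.67 CPM per kb. In the High ERN2, stress libraries EIF2AK1 was at 37.3 ± 1.85%, EIF2AK2 at 24.3 ± 5.11%, EIF2AK3 at 21.5 ± 0.551% and EIF2AK4 at 17.0 ± 3.68%. The share of EIF2AK1 was lowest in this group and highest without either treatment, and the ranges of those 2 groups were far apart. Replicates 2 and 3 of the High ERN2, stress group had EIF2AK1 at 35.9 and 36.6% and EIF2AK2 at 26.7 and 27.7%, where replicate 1 had 39.4% and 18.4%. The ratio of PPP1R15A to PPP1R15B, per kb of exon, was 1.49 ± 0.214 in the No ERN2, control libraries and 3.91 ± 0.417 in the No ERN2, stress libraries. In control it was 2.08 ± 0.199 at the low dose and 2.66 ± 0.347 at the high dose, and with thapsigargin 4.01 ± 0.236 and 3.92 ± 0.566. The ratio stepped up with dose in control, with no overlap between doses, and its ranges overlapped between doses with thapsigargin.

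For each gene the groups were also ordered by mean CPM. EIF2AK4 had the narrowest range, from 78.5 ± 2.08 CPM (SD, n = 3) in the No ERN2, stress libraries to 99.6 ± 2.13 CPM in the High ERN2, control libraries, and its levels with thapsigargin were below those of control at 0 and 10 ng/mL and overlapped them at 100 ng/mL. For EIF2S1 the order ran from the Low ERN2, control group at 129.7 ± 6.78 CPM to the High ERN2, stress group at 189.8 ± 40.5 CPM, and the only neighbours apart were the lowest pair. For EIF2AK2 all neighbouring groups overlapped, although the extremes were 72.2 ± 4.89 and 132 ± 48.9 CPM. For EIF2AK3 the 3 thapsigargin groups stood above the 3 control groups, and neighbours on the same side overlapped. PPP1R15A had the 3 thapsigargin groups at 308 to 330.2 CPM, overlapping, and the 3 control groups apart from each other.

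**Figure D4:**
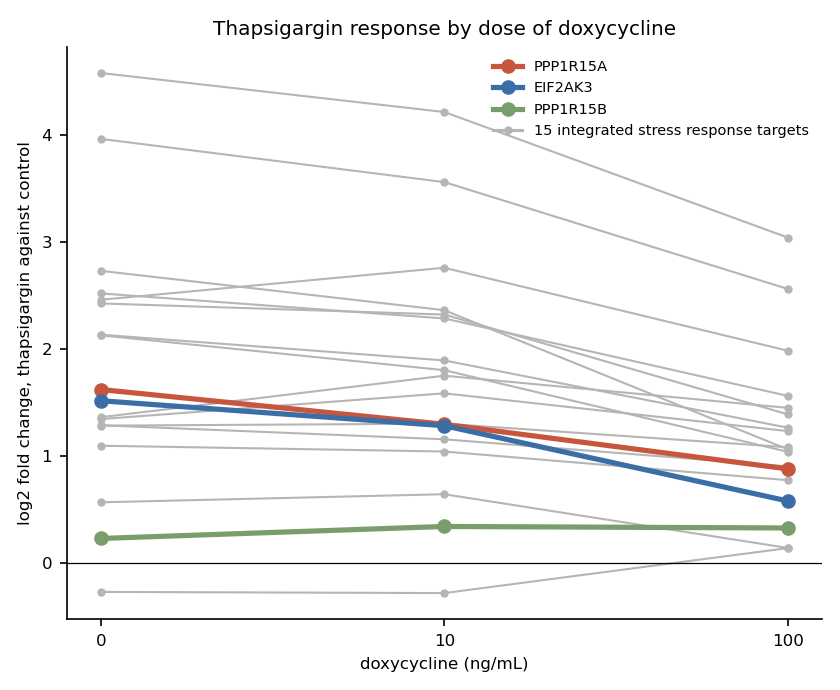
Log2 fold change of thapsigargin against control at each dose of doxycycline (categories on the x axis) for PPP1R15A, EIF2AK3 and PPP1R15B and, in grey, for 15 integrated stress response targets. At 0 ng/mL 14 of the 15 grey points are above 0, and PPP1R15A and EIF2AK3 lie among them at 1.62 and 1.51.

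The targets of the switch were read from a list of 15 genes linked to the integrated stress response, which follows phosphorylation of eIF2 alpha. The list includes ATF4 itself. With thapsigargin edgeR called 12 of 15 higher without doxycycline, 12 with the low dose and 7 with the high dose, and none lower. Of all genes, 6.45%, 1.16% and 0.18% were called higher at these doses. DESeq2 called 13, 12 and 12 of the 15 targets, all higher, and 14, 14 and 15 were above 0. ATF5 was lower without doxycycline, at a mean of 83.3 CPM with thapsigargin against 101.6 CPM in control. The median log2 change of the targets was 2.12, 1.80 and 1.23, against -0.01, -0.01 and 0.00 over all genes tested. Without the first High ERN2, stress replicate, 12 of 15 rose at 100 ng/mL, with a median of 1.16, where 17.6% of all genes were called. CHAC1, which degrades glutathione, rose by 4.58, 4.21 and 3.04 on the log2 scale at the 3 doses, and DDIT3 (CHOP) by 3.96, 3.56 and 2.56. Without doxycycline TRIB3, a pseudokinase that restrains the pathway, rose by 2.73, and DDIT4, an inhibitor of mTORC1, by 2.52. SLC7A11, the cystine transporter, rose by 2.76 at the low and by 1.98 at the high dose. ATF4 itself, named after its values were seen, rose by 1.28 without doxycycline and by 1.15 at the low dose, and differed by 0.90 at the high dose (adjusted p = 0.0202, edgeR). In the interaction with 100 ng/mL 0 of 15 passed by edgeR, 7 were at an unadjusted p under 0.05 and DESeq2 called 5, all negative, with a median of -0.40 against 0.04 over all genes. DDIT3 had -1.32 (adjusted p = 0.0101) and CHAC1 -1.46 (adjusted p = 0.0238) by edgeR. Without the first High ERN2, stress replicate 6 of 15 passed, all negative, where 8.6% of all genes were called.

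Doxycycline at 100 ng/mL, without thapsigargin, raised 2 of the 15 targets and lowered 2 by edgeR, where 0.838% of genes were called higher and 7.49% lower. At an unadjusted p under 0.05 there were 10 targets, and DESeq2 called 5 higher and 2 lower. In all, 13 of 15 were above 0, with a median log2 change of 0.48 against -0.01 over all genes. CHAC1 rose by 1.11 and DDIT3 by 0.67 on the log2 scale, as did PPP1R15A in the same libraries. VLDLR, a lipoprotein receptor, fell by 0.89 and PSAT1, an enzyme of serine synthesis, fell by 0.82. Under thapsigargin the same dose lowered DDIT3 by 0.71 and VLDLR by 1.29, the 2 of 15 called lower by edgeR, where 9% of all genes were. None of the 15 was called higher. Without the first High ERN2, stress replicate, 9 of 15 were lower and 1 was higher. Leaving it out also brought the calls over all genes to 27.2%, with 1957 higher and 1993 lower of 14527. The low dose in control gave 0 of 15 by edgeR, with 7 at an unadjusted p under 0.05, and DESeq2 called 1. These comparisons share their control or their thapsigargin libraries, so their counts are not independent.

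Among regulators of the kinases, the ER chaperone HSPA5 (BiP), which holds PERK inactive, rose by 2.87, 2.20 and 1.20 (log2) with thapsigargin at the 3 doses. DNAJC3 (p58IPK), an inhibitor of PERK and PKR, rose by 1.76 without doxycycline. These were 2 of the 10 regulators called at that dose, where 11.2% of all genes were. HSPA5 was the 1 called at 10 and at 100 ng/mL, where 1.45% and 0.201% of all genes were. When the first High ERN2, stress replicate was left out, 5 of 10 rose and 2 fell at 100 ng/mL, where 17.6% of all genes were called. The largest changes among the regulators were HSPA5 (1.24), NCK1 (1.10), OMA1 (0.84) and TARBP2 (-0.76). HSPA5 rose by 0.84 with 100 ng/mL doxycycline in control and its interaction of -1.58 passed (adjusted p = 0.00897, edgeR). Under thapsigargin that dose lowered DNAJC3 by 1.48 and HSPA5 by 0.80, the 2 of 10 called, where 9% of all genes were lower. With the High ERN2, stress replicate 1 left out, 3 of 10 were lower there, DNAJC3, HSPA5 and GCN1L1, and 3 were higher: OMA1, a mitochondrial protease upstream of HRI (1.11), the adaptor NCK1 (0.78) and PRKRA, the activator of PKR (0.67). Of all genes, 27.2% were called in that fit. The interaction without that replicate called HSPA5 (-1.58), OMA1 (1.41) and PRKRA (0.87), where 8.6% of all genes were called. GCN1L1, the activator of GCN2, was the 1 regulator that fell in the average over doses (log2 -0.39, adjusted p = 0.0028, edgeR). In that average 3 of 10 regulators were called, where 21.8% of all genes were.

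Of the other eIF2 and eIF2B genes, 1 of 9 rose and 1 fell with thapsigargin without doxycycline, where 6.45% and 4.74% of all genes did. EIF5, the GTPase activator of eIF2, rose by 0.60 on the log2 scale, and by 0.89 at 10 ng/mL. CDC123, which assembles eIF2, fell by 0.42 (adjusted p = 0.00995, edgeR). In the average over doses EIF5 and EIF2S2 (eIF2 beta) rose, by 0.73 and 0.50, which is 2 of 9 where 10.7% of all genes rose. CDC123 rose by 0.71 with 100 ng/mL doxycycline under thapsigargin, the 1 of 9 called where 10.5% of all genes were. Leaving out the first High ERN2, stress replicate, EIF2S2 (0.92) and EIF5 (0.93) rose with thapsigargin at 100 ng/mL, EIF2S2 (0.59) and CDC123 (0.85) were higher with that dose under thapsigargin, and the interactions of EIF2S2 (0.71) and CDC123 (0.88) passed. In these fits 17.6%, 27.2% and 8.6% of all genes were called, in the same order. The 5 subunits of eIF2B, the exchange factor that phosphorylated eIF2 alpha inhibits, gave 0 calls over the 10 comparisons by edgeR and 0 by DESeq2, with 3 at an unadjusted p under 0.05. The 3 catalytic subunits of protein phosphatase 1 also gave 0 calls by both, with 7 at an unadjusted p under 0.05. PPP1CC had -0.43 with thapsigargin without doxycycline (edgeR, adjusted p = 0.0289) and 0.55 with 100 ng/mL under thapsigargin (edgeR, adjusted p = 0.0461), and without the first High ERN2, stress replicate PPP1CC and PPP1CB passed in the latter, as did the interaction of PPP1CC (0.96).

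EIF2AK2 is itself an interferon-stimulated gene, so 14 others were read beside it, of which 12 passed the filter on low counts. IFIT1, which binds viral RNA, was the 1 of 12 that fell with thapsigargin without doxycycline, where 4.74% of all genes did. It fell by 1.77 on the log2 scale (adjusted p = 0.00083, edgeR). Its counts were low, at 42 to 63 reads in control and 12 to 19 with thapsigargin. Over the 12 the median was -0.13 against -0.01 over all genes. At each of the other doses 0 of 12 were called by edgeR and by DESeq2 with all libraries, and 3 were at an unadjusted p under 0.05. With the first High ERN2, stress replicate left out, DDX58 (RIG-I) rose at 100 ng/mL (log2 0.85, adjusted p = 0.00668, edgeR), where 17.6% of all genes were called. IFI6, an interferon-induced membrane protein, fell with 100 ng/mL doxycycline by 1.92 in control and by 2.49 under thapsigargin. It was the 1 of 12 called in each, where 8.33% and 10.5% of all genes were. IFI6 had 30 to 72 reads in the High ERN2, control libraries and 14 to 26 in the High ERN2, stress libraries. In the average over doses IFIT1, IFI6 and OAS3 fell, by 0.85, 0.71 and 0.42, and DDX58 (RIG-I) rose by 0.62. These were 4 of 12 called, in both directions, where 21.8% of all genes were called. With 100 ng/mL under thapsigargin, where EIF2AK2 was 1.90-fold higher, the median of the 12 was 0.28 against 0.04 over all genes.

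The genes whose levels followed each called member most closely were found among 15023 genes by Pearson's r of log2 CPM over the 18 libraries, which share treatments and doses, so r is given as a description. For EIF2AK1 they were TXNDC12 (r = 0.993), CREG1 (0.992) and GOLIM4 (0.990), which encode an ER thioredoxin, a secreted glycoprotein and a Golgi membrane protein. For EIF2AK2 they were RBBP6 (0.986), CAPZA2 (0.979) and G3BP2 (0.973). For EIF2AK3 they were ZNF550 (0.960), RAB33B (0.959) and UHRF1BP1 (0.957). For PPP1R15A they were GADD45A (0.983), VEGFA (0.983) and DUSP16 (0.978), of which GADD45A is a growth arrest gene and VEGFA an angiogenic factor. For PPP1R15B they were OSBPL3 (0.958), OXSR1 (0.932) and ZNF391 (0.925).

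**Figure D5:**
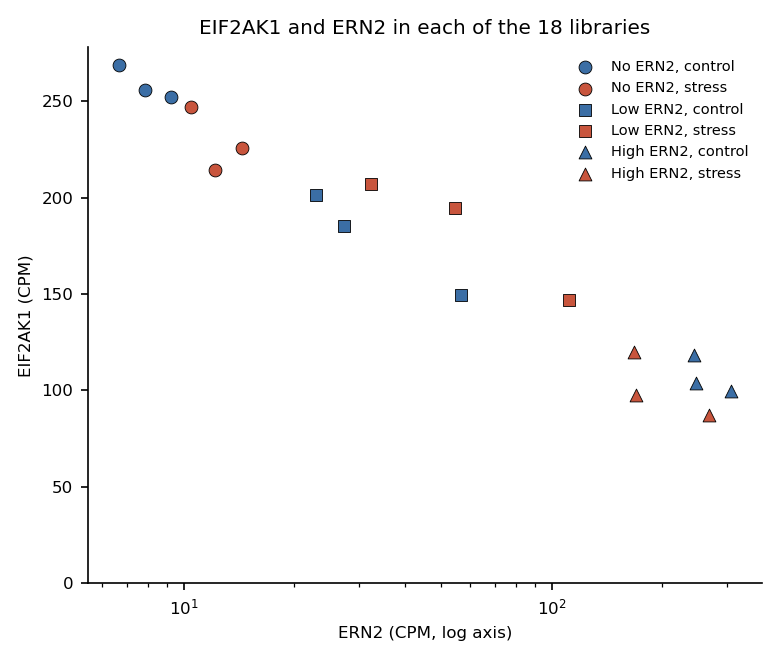
EIF2AK1 (CPM, linear from 0) against ERN2 (CPM, log axis) in each library, with the dose as the shape and thapsigargin in red. The 3 doses form 3 clusters, from 214 to 269 CPM of EIF2AK1 without doxycycline down to 87.3 to 119.8 CPM at 100 ng/mL.

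EIF2AK1 was also set against ERN2 library by library, a comparison chosen after the values were seen. The doses form clusters, so no pooled correlation is given. At 10 ng/mL replicate 3 of each treatment had the most ERN2, at 56.8 CPM in control and 111 CPM with thapsigargin, and the least EIF2AK1, at 149 and 147 CPM. Within the 6 libraries of a dose, Pearson's r of log2 CPM was -0.895 without doxycycline (exact permutation p = 0.0194, adjusted over 3 doses 0.0582), -0.786 at 10 ng/mL (exact p = 0.0944, adjusted 0.142) and -0.38 at 100 ng/mL (exact p = 0.439, adjusted 0.439), all two-sided. Spearman's rho was -0.943, -0.714 and -0.543 (exact permutation p = 0.0167, 0.136 and 0.297, adjusted 0.0501, 0.204 and 0.297). Without the 2 libraries farthest from the median ERN2, r was -0.866, -0.525 and -0.452. None of the 3 passed after adjustment. Without doxycycline the thapsigargin libraries had both more ERN2 and less EIF2AK1, so treatment and ERN2 cannot be told apart in that relation. At every dose the 6 libraries mix both treatments, and the permutation took no account of treatment. Mean ERN2 was 35.7 CPM in control and 66.05 CPM with thapsigargin at 10 ng/mL, and 266 and 201 CPM at 100 ng/mL.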

How the data were processed

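RNA from 18 samples of HEK293doxERN2 cells was sequenced by the authors as 75-cycle single-end reads on a NextSeq500 after stranded poly(A) library preparation with a KAPA kit. The deposited values are whole-number counts per gene, aligned by the authors with STAR in the VIPER pipeline against hg38. The version of the aligner, its gene annotation and whether counting used strand are not given in the sources used here. Columns were matched to samples through the column number that the labels give, and 0 columns were left unused. In the deposited counts 28 gene symbols had been turned into dates, and those rows were kept as they stand.

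Counts were filtered with filterByExpr (minimum count 10), scaled by the trimmed mean of M values and tested with edgeR 4.0.16 (limma 3.58.1, R 4.3.3) by the quasi-likelihood test, fitted to the compared groups alone. P-values were adjusted by Benjamini-Hochberg across every gene tested, and the threshold was 0.01, taken from the study's methods. Standard errors are the log2 fold change over the square root of F, and intervals are 95%. Library totals of 14876416 to 24652240 set the counting error, and pairs within groups differed by more than it, with a chi-square per degree of freedom of at least 7.33. CPM per kb used exon lengths of GENCODE 29, and log2 CPM used a prior count of 0.5. Derived values were computed in Python 3.11.15.

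The members and lists were chosen with earlier results of these data known. The text names the 7 members in every comparison and ERN2 as a check, from each list the genes that passed (up to the 4 with the largest change, otherwise the 2 with the largest change), and the 3 genes that correlated most with each called member. Alternatives were DESeq2 1.42.0, its size factors, no filter, a block for the replicate number, 1 model of the 6 groups, a threshold of 0.05 and leaving out each library. The fitting was tested on simulated data. Same numbers deviated together in every pair only for 10 against 0 ng/mL with thapsigargin (correlations of 0.359, 0.303 and 0.407), where 6 of 6 libraries correlated best with their own number. The labels do not say what the numbers mark.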

Additional observations from a re-analysis of the deposited data

How the results depend on the processing

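Leaving out 1 library or changing another setting kept the direction and the side of the threshold in 559 of the leave-one-out results for the members (17 changed sign, 10 came to pass, 2 no longer passed) and in 395 under the other settings (4, 19 and 2). Each member had at least 561 reads in every library, and precision rests on 3 libraries a group. The numbers below are genes called, then members called. Thapsigargin without doxycycline called 1611 genes, 3260 at an adjusted p under 0.05, and 731 (without No ERN2, control replicate 1) to 1901 with a library left out, with 906 and 996 without No ERN2, stress replicates 1 and 2 and 923 without No ERN2, control replicate 3, and with 3 members with any library left out and 2 in 1 model of 6 groups. At 10 ng/mL it called 212 genes, 1101 by DESeq2, 529 with no filter, 676 in 1 model of 6 groups, 1009 at 0.05, and 28 (without Low ERN2, control replicate 2) to 494 (without Low ERN2, stress replicate 3), with 57 and 117 without Low ERN2, stress replicate 2 and control replicate 3, and with 1 to 2 members. At 100 ng/mL it called 29 genes (26 higher, 3 lower), 732 by DESeq2 (257 higher, 475 lower), 299 with no filter (110, 189), 941 in 1 model (233, 708), 494 at 0.05 (152, 342), and 4 (without High ERN2, control replicate 3 or stress replicate 2) to 2568 (without High ERN2, stress replicate 1), with 1 member by DESeq2, by its size factors, with no filter, in 1 model and at 0.05, and 0 to 3 with a library left out. The average over doses called 3282 genes, 5173 at 0.05, and 2693 to 3458 with a library left out, with 3 members.

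In control, 10 ng/mL called 28 genes (20 higher, 8 lower), 381 by DESeq2 (107, 274), 623 with no filter (155, 468), 3 in 1 model, 110 at 0.05 (53, 57), and 0 to 2743 (without Low ERN2, control replicate 1), with 1 member by DESeq2, 2 with no filter and 0 to 2 with a library left out. For 100 ng/mL these were 1203 genes, 2063 at 0.05 and 915 to 1397, with 2 members. Under thapsigargin, 10 ng/mL called 0 genes, 39 by DESeq2, 1 with no filter and 0 with any library left out. There 100 ng/mL called 1512, 2331 by DESeq2 (677, 1654), 2641 in 1 model, 3018 at 0.05 (1034, 1984), and 763 (without High ERN2, stress replicate 2) to 3950 (without High ERN2, stress replicate 1), with 875 and 964 without No ERN2, stress replicates 1 and 2. Members called there were 1, with 2 by DESeq2, 2 with no filter, 4 in 1 model, 3 at 0.05 and 1 to 3 with a library left out. The interaction with 10 ng/mL called 0 genes, 3 by DESeq2, 1 with no filter, 1 in 1 model, 1 at 0.05 and 0 with any library left out. The interaction with 100 ng/mL called 6 (1 higher, 5 lower), 341 by DESeq2, 14 with its size factors (3, 11), 86 with no filter, 35 in 1 model, 149 at 0.05, and 2 to 1286 (without High ERN2, stress replicate 1), with 2 members by DESeq2 and 0 to 3 with a library left out. In 1 model the median over all genes of this interaction moved from 0.04 to -0.08. The causes were not tested.

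With the replicate number as a block, thapsigargin called 3571, 3620 and 4 genes at 0, 10 and 100 ng/mL, with 3 members at 10 ng/mL (PPP1R15B added, adjusted p = 0.00116, edgeR). For doxycycline the block gave 124 (35, 89) and 750 genes in control, with 1 member (EIF2AK1) at 100 ng/mL, and 564 genes and 1 member at 10 ng/mL under thapsigargin. The interactions gave 1 and 3. Except for 10 against 0 ng/mL under thapsigargin, same-numbered libraries did not deviate together in every pair. For thapsigargin against control their correlations were 0.079, 0.166 and 0.229 without doxycycline and 0.438, -0.037 and 0.37 at 10 ng/mL. At 100 ng/mL they were -0.279, -0.0742 and 0.243. Own-number best matches were 5, 4 and 1 of 6 for thapsigargin at the 3 doses. They were 2 and 2 of 6 for doxycycline in control and 1 of 6 for 100 ng/mL under thapsigargin. The main tests took no account of the number.

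The reversals were of differences near 0. With thapsigargin and a library left out, EIF2AK1 ran from -0.069 to 0.17 at the low dose and -0.17 to 0.054 at the high dose, and EIF2AK4 from -0.018 to 0.030 at the high dose (-0.032 in 1 model). For 10 ng/mL under thapsigargin the ranges were -0.045 to 0.053 for EIF2AK2 (0.00404 by DESeq2, 0.00395 with its size factors, 0.00557 with no filter), -0.23 to 0.056 for EIF2AK3, -0.090 to 0.023 for EIF2S1 and -0.12 to 0.011 for PPP1R15A. For 100 ng/mL under thapsigargin they were -0.11 to 0.0051 for PPP1R15A and -0.11 to 0.037 for PPP1R15B.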
